A study of Homo sapiens with 9 samples.

Results

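The autophagy machinery genes are 38 human genes that code for the proteins which build autophagosomes, load them with cargo and control the process. They were chosen by gene name and fall into 7 roles. All 38 were found, each under 1 Ensembl identifier, among the 60966 genes of the deposited tables. The RNA came from H1299, a long-established human lung cancer cell line, harvested 48 h after siRNA transfection. The control cells received a scrambled siRNA (Scramble), and the others received Si-FIBP#1 or Si-FIBP#2, which differ in sequence and both target FIBP, a protein that binds acidic fibroblast growth factor inside the cell. Each group had 3 samples, which the submitters call independent. All 3 groups were transfected, and no untransfected cells were measured.

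Autophagy encloses a portion of the cytoplasm in a double membrane, the autophagosome, and delivers it to the lysosome for digestion. A kinase complex around ULK1 starts the process, a class III lipid kinase complex marks the membrane, and lipid carriers make it grow. A conjugation system resembling that of ubiquitin then attaches small proteins of the ATG8 family, LC3 and GABARAP, to the membrane, where receptors such as p62 (SQSTM1) tie cargo to them. In lung cancer, as in other tumors, autophagy is known both to limit early growth and to help established cells withstand starvation and treatment.

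The values are FPKM, fragments per kilobase of transcript scaled to the depth of the library, summed over the transcripts of a gene. The 3 controls held 88.4, 79.5 and 77.7 FPKM of FIBP itself, and its mean after Si-FIBP#1 and Si-FIBP#2 was 7.96% and 8.66% of that level. The libraries held an estimated 20.0 to 23.9 M fragments and 13894 to 14715 genes at 1 FPKM or more. KRT8, KRT18 and VIM, markers of the line, were present throughout. They were lower in the depleted samples, with KRT18 between 467 and 483 FPKM in Scramble and between 143 and 226 FPKM in the 6 others. KRT19, EPCAM, CDH1, NKX2-1, SFTPB and NAPSA, other markers of lung epithelium or adenocarcinoma, were near 0, and together with 10 markers of leukocytes, endothelium and fibroblasts they reached at most 1.59 FPKM in any sample. Si-FIBP#2 replicate 2 stood apart from the other members of its group: it had the highest value of its group for 26 of the 38 autophagy genes, the lowest for VIM and KRT18, and results that rest on it are given without it as well. The part of these differences in the autophagy values was not tested.

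Most autophagy genes had higher mRNA levels in the FIBP-depleted cells. A gene counts as higher or lower here when limma gave an adjusted p (FDR) below 0.05 over the 14985 genes that reached 1 FPKM in 3 or more samples. All 38 autophagy genes passed this filter, each with at least 1 FPKM in all 3 Scramble samples. With Si-FIBP#1, 23 were higher and 1 was lower, against 27.8% and 19.9% of all genes tested. With Si-FIBP#2, 27 were higher and 2 were lower, against 31.1% and 17.7% of all genes. In either direction the shares were 63.2% and 76.3% of the members, against 47.7% and 48.8% of all genes. The background share depends on the filter: with one of 5 FPKM it was larger, at 5850 and 5981 of 10492 genes. Without Si-FIBP#2 replicate 2, 25 were higher and 1 was lower after Si-FIBP#2, against 4204 higher and 2615 lower of all 14985 genes. The changes were small: the median log2 fold change over the members was 0.32 after Si-FIBP#1 and 0.42 after Si-FIBP#2, against 0.07 and 0.11 over all genes. Beyond 2-fold, the threshold of the study's methods, only MAP1LC3A rose after Si-FIBP#1 and only GABARAPL1 after Si-FIBP#2, 1 member each, while 2.55% and 2.92% of all genes rose that far. Folds here are on the log2(FPKM + 1) scale, which shrinks low genes: TFEB, called higher after Si-FIBP#2, had a mean FPKM 2.27 times that of Scramble but a log2 change of 0.74.

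Both comparisons use the same 3 Scramble samples. The 22 genes called higher in both were ULK1, ATG13, ATG101, BECN1, ATG14, WIPI1, WIPI2, ATG2A, ATG2B, ATG9A, ATG4D, ATG7, ATG16L1, MAP1LC3A, GABARAP, GABARAPL1, GABARAPL2, SQSTM1, NBR1, TAX1BP1, CALCOCO2 and AMBRA1, against 21.8% of all genes. ATG12 was the 1 gene called lower in both, against 13.7% of all genes. RB1CC1 was called higher in the comparison after Si-FIBP#1 alone, and ATG3, ATG4B, MAP1LC3B, PIK3C3 and TFEB in that after Si-FIBP#2 alone, where PIK3R4 was also called lower. Of these 7 genes, ATG3 and MAP1LC3B also differed between the siRNAs, while the other 5 did not pass that test (limma, adjusted p from 0.0523 to 0.193). ATG10, ATG4A, ATG4C, ATG5, OPTN, TFE3, ULK2 and UVRAG passed the test with neither siRNA. In 22 members, 57.9%, all 6 FIBP-depleted samples lay above all 3 Scramble samples, against 26.3% of all genes, and in ATG12 all 6 lay below, against 16.5%.

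FPKM is a share of the sequenced fragments, and in bulk RNA fewer cells of a type and less RNA per cell cannot be told apart. The balance of higher and lower genes depends on the scaling. When the samples were instead scaled by the median ratio of their genes, 22.5% of all genes were higher and 24.1% lower after Si-FIBP#1, and 22.3% were higher and 24.5% lower after Si-FIBP#2. Under that scaling 19 autophagy genes were higher and 1 lower after Si-FIBP#1, and 23 were higher and 2 lower after Si-FIBP#2. The members' median log2 fold change was then 0.24 and 0.31, and that of all genes 0.00372 and 0.00465. The summed level of the 38 genes was 1412, 1419 and 1442 FPKM in the controls, 1900.0, 1925 and 1920.0 FPKM after Si-FIBP#1 and 1815, 2063 and 1901 FPKM after Si-FIBP#2. SQSTM1 alone made up 23.8% of that sum in Scramble, and the sum of the other 37 genes was 1.29 and 1.32 times its Scramble mean.

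**Figure D1:**
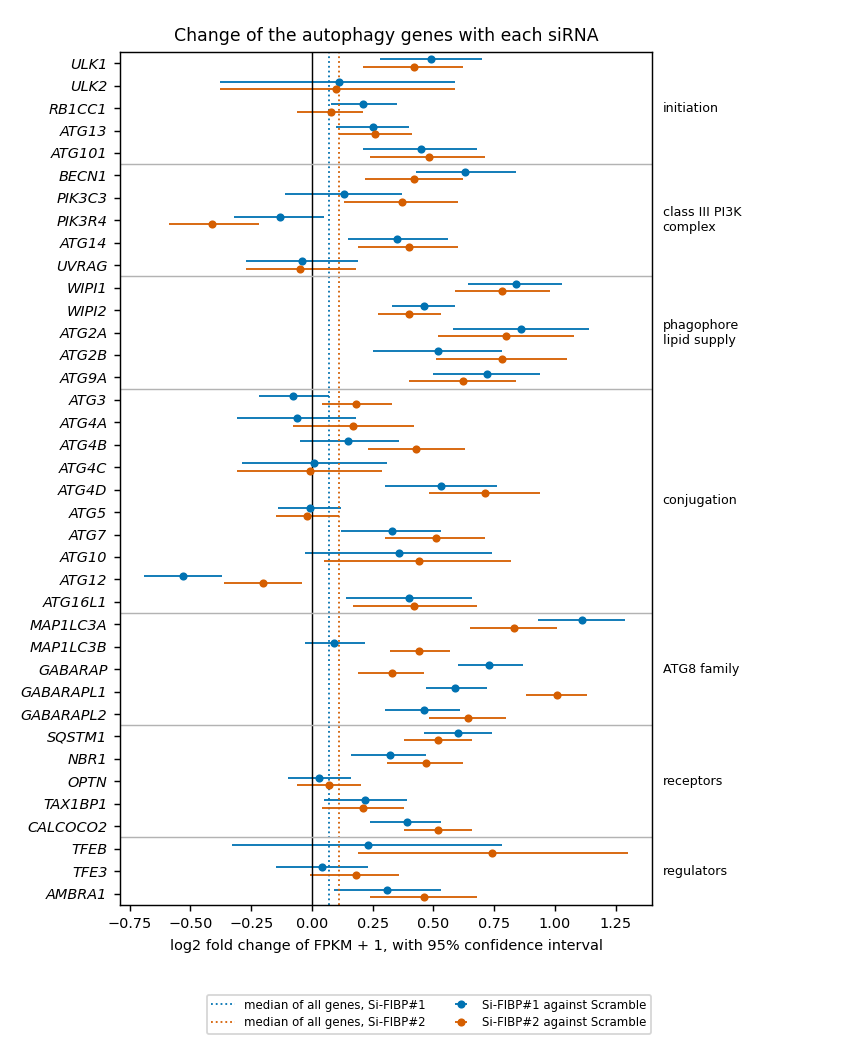
Points are log2 fold changes of FPKM + 1 against Scramble, with 95% confidence intervals, for Si-FIBP#1 (blue) and Si-FIBP#2 (orange), and dotted lines mark the medians of all genes tested. MAP1LC3A at 1.11 and GABARAPL1 at 1.01 lie farthest right, and ATG12 at -0.53 lies farthest left.

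The promoters of 34 of the 38 genes are in the RefSeq promoter table (GRCh38.p14), as 44 windows that run from 250 bases before to 50 bases after a transcription start. ATG4D, MAP1LC3A, RB1CC1 and UVRAG were not matched. They were searched for CACGTG, the core of the element read by TFEB and TFE3, transcription factors that switch on lysosome and autophagy genes. This motif is its own reverse complement, so 1 strand covers both. It was found in 2 of the 44 windows, 4.55%, and in 7.26% of all 35116 windows in the table. The longer TCACGTG, read on both strands and always overlapping the shorter motif, was found in the same 2 windows, against 3.71% of all windows. The holders were ATG14 and ATG3. Their 250 bases before the start are shown together with those of GABARAPL1, the member with the largest rise after Si-FIBP#2 on the log2(FPKM + 1) scale, and ATG12, which fell with both siRNAs. All are written 5′ to 3′ on the strand of the gene, with CACGTG in capitals. ATG14 is on the minus strand at chr14:55411831-55412080, ATG3 on the minus strand at chr3:112561963-112562212, GABARAPL1 on the plus strand at chr12:10212627-10212876 and ATG12 on the minus strand at chr5:115841566-115841815.
ATG14: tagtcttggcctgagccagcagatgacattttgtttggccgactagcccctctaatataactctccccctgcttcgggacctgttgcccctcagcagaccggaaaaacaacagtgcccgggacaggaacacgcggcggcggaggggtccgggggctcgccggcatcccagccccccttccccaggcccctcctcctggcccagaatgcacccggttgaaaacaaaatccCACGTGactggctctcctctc
ATG3: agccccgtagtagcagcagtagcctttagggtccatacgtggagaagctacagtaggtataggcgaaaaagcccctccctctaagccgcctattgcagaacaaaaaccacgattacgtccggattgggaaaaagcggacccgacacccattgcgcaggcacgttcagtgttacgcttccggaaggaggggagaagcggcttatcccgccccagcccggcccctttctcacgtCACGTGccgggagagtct
GABARAPL1: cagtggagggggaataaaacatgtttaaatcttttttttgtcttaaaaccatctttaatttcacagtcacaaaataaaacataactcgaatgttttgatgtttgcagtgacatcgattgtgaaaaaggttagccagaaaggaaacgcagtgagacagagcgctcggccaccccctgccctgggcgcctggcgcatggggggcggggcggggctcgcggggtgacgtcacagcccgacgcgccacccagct
ATG12: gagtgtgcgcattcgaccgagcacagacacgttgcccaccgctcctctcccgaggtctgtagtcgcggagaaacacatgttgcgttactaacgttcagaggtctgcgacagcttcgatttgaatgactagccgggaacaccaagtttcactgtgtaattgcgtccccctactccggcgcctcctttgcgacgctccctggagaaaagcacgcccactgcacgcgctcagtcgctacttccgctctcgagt
The motif ends 16 bases before the start in ATG14 and 13 bases before it in ATG3, whose window holds 2 copies, the other one not in the stretch shown. The GABARAPL1 and ATG12 windows hold no CACGTG.

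The initiation complex was higher for 4 of its 5 genes after Si-FIBP#1 (27.8% of all genes) and 3 of 5 after Si-FIBP#2 (31.1% of all genes). ULK1, the kinase at its center, was at 11.1, 8.88 and 9.67 FPKM in the controls, 14.7, 14.5 and 13.6 FPKM after Si-FIBP#1 and 12.3, 13.5 and 14.8 FPKM after Si-FIBP#2. All 6 depleted samples lay above the 3 controls. ULK1 rose by 0.49 ± 0.09 (SE) on the log2 scale after Si-FIBP#1 (limma, adjusted p = 0.00189) and 0.42 ± 0.09 after Si-FIBP#2 (adjusted p = 0.0046). ATG101, which stabilizes ATG13 in the complex, was at 45.5, 43.7 and 44.6 FPKM in the controls, 65.5, 61.0 and 57.4 FPKM after Si-FIBP#1 and 55.2, 75.5 and 58.4 FPKM after Si-FIBP#2. Depleted and control samples did not overlap, and Si-FIBP#2 replicate 2 was far above its partners. ATG101 rose by 0.45 ± 0.10 (adjusted p = 0.00605) and 0.48 ± 0.10 (adjusted p = 0.00425). ATG13, the adaptor of the kinase, rose by 0.25 ± 0.07 and 0.26 ± 0.07, and its call after Si-FIBP#2 was lost under median-ratio scaling (adjusted p = 0.0849). RB1CC1, the scaffold also called FIP200, rose by 0.21 ± 0.06 after Si-FIBP#1 (adjusted p = 0.0142), a call lost without Si-FIBP#1 replicate 3, under median-ratio scaling and over Ensembl transcripts alone (log2 fold change 0.09 and adjusted p = 0.449 over the latter). ULK2, the second kinase of the family, was between 1.09 and 2.77 FPKM and differed by 0.11 ± 0.22 and 0.10 ± 0.22, within its spread.

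In the class III lipid kinase complex 2 of 5 genes were higher after Si-FIBP#1, and 3 were higher and 1 was lower after Si-FIBP#2, where 27.8% of all genes were higher, then 31.1% higher and 17.7% lower. BECN1, or Beclin 1, the regulatory core of the complex, was at 31.7, 30.5 and 33.6 FPKM in the controls, 45.9, 51.4 and 53.2 FPKM after Si-FIBP#1 and 42.3, 48.6 and 38.4 FPKM after Si-FIBP#2. Every depleted sample was above every control. BECN1 rose by 0.63 ± 0.09 (adjusted p = 0.000342) and 0.42 ± 0.09 (adjusted p = 0.00386). ATG14, the subunit that directs the complex to autophagy, was at 4.79, 4.74 and 5.08 FPKM in the controls, 6.67, 5.63 and 7.30 FPKM after Si-FIBP#1 and 6.70, 6.75 and 6.72 FPKM after Si-FIBP#2. It rose by 0.35 ± 0.09 (adjusted p = 0.0108) and 0.40 ± 0.09 (adjusted p = 0.006). An assembled transcript without an Ensembl identifier held 49.1% of its FPKM, and over Ensembl transcripts alone its change after Si-FIBP#1 was 0.13 (adjusted p = 0.392). UVRAG, which takes the place of ATG14 in a second form of the complex, differed by -0.04 ± 0.10 and -0.05 ± 0.10, which did not pass the test.

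PIK3C3 and PIK3R4, subunits of the same complex, moved in opposite directions after Si-FIBP#2, an observation chosen after their values were seen. BECN1 and ATG14 rose there, as PIK3C3 did. PIK3C3, the lipid kinase VPS34, was at 19.1, 23.4 and 25.1 FPKM in the controls, 22.4, 24.9 and 26.6 FPKM after Si-FIBP#1 and 28.7, 31.6 and 27.2 FPKM after Si-FIBP#2. It rose by 0.37 ± 0.11 after Si-FIBP#2 (limma, adjusted p = 0.0172), a call lost under median-ratio scaling and without Scramble replicate 1 or Si-FIBP#2 replicate 2 (adjusted p up to 0.0926). PIK3R4, its partner VPS15, was at 28.3, 31.4 and 31.3 FPKM in the controls, 26.6, 30.6 and 25.7 FPKM after Si-FIBP#1 and 21.8, 24.5 and 21.7 FPKM after Si-FIBP#2. The 3 Si-FIBP#2 samples lay below all others. PIK3R4 changed by -0.41 ± 0.08 after Si-FIBP#2 (adjusted p = 0.00274) and by -0.13 ± 0.08 after Si-FIBP#1 (adjusted p = 0.208). The difference between the siRNAs was -0.27 ± 0.08 (adjusted p = 0.0523). It passed the test with the replicate block (adjusted p = 0.0286), under median-ratio scaling (0.0336), with a filter of 5 FPKM (0.0388) and without Si-FIBP#2 replicate 2 (0.0279).

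The lipid supply role takes in WIPI1 and WIPI2, which read the lipid mark or bring in ATG16L1, beside ATG2A, ATG2B and ATG9A. Of these genes, 5 of 5 were called higher with each siRNA, against 27.8% and 31.1% of all genes. Over Ensembl transcripts alone it was 4 of 5 with each siRNA, against 3553 and 3979 of all 14110 genes tested. The median log2 fold changes of the 5 were 0.72 and 0.78, against 0.07 and 0.11 over all genes. WIPI1, which reads the lipid mark on the membrane, was at 11.2, 10.5 and 10.7 FPKM in the controls, 21.1, 19.8 and 19.4 FPKM after Si-FIBP#1 and 16.8, 21.4 and 19.8 FPKM after Si-FIBP#2. Its level was 1.86 and 1.79 times that of Scramble. WIPI1 rose by 0.84 ± 0.09 (limma, adjusted p = 4.97e-05) and 0.78 ± 0.09 (adjusted p = 7.89e-05). ATG2A, a lipid transfer protein, was at 7.78, 6.70 and 7.07 FPKM in the controls, 15.4, 14.6 and 11.8 FPKM after Si-FIBP#1 and 11.5, 15.4 and 13.0 FPKM after Si-FIBP#2. The lowest depleted sample was well above the highest control. ATG2A rose by 0.86 ± 0.12 (adjusted p = 0.000381) and 0.80 ± 0.12 (adjusted p = 0.000587), and assembled transcripts held 50.3% of its FPKM. ATG2B, its paralog, rose by 0.52 ± 0.12 and 0.78 ± 0.12, and ATG9A, the membrane protein of the vesicles that seed the autophagosome, by 0.72 ± 0.10 and 0.62 ± 0.10. WIPI2, which brings in ATG16L1, rose by 0.46 ± 0.06 and 0.40 ± 0.06, but over Ensembl transcripts alone by 0.22 (adjusted p = 0.115) and 0.11 (adjusted p = 0.411), values that did not pass the test.

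In the conjugation system 3 of 10 genes were higher and 1 was lower after Si-FIBP#1, and 5 were higher and 1 was lower after Si-FIBP#2. The share higher after Si-FIBP#1, 30.0%, is close to the 27.8% of all genes, while 19.9% of all genes were lower there and 31.1% were higher and 17.7% lower after Si-FIBP#2. ATG12 encodes a ubiquitin-like protein that is joined to ATG5. It was at 46.5, 40.3 and 43.9 FPKM in the controls, 30.0, 27.9 and 31.8 FPKM after Si-FIBP#1 and 39.9, 36.0 and 37.5 FPKM after Si-FIBP#2. All depleted samples lay below the controls, and those after Si-FIBP#1 were the lowest. ATG12 changed by -0.53 ± 0.07 after Si-FIBP#1 (limma, adjusted p = 0.000287) and by -0.20 ± 0.07 after Si-FIBP#2 (adjusted p = 0.0447). The call after Si-FIBP#1 was kept under all 17 alternative settings. The call after Si-FIBP#2 was lost under 8 of them, including leaving out Scramble replicate 1 or 3, Si-FIBP#1 replicate 1 or Si-FIBP#2 replicate 2 or 3 (adjusted p up to 0.145). The ATG12 exons overlap those of AP3S1, a gene on the other strand, by 378 bases. AP3S1 fell from a mean of 147 FPKM in Scramble to 104 and 91.4 FPKM (limma, adjusted p = 0.00135 and 0.000183). The kit did not mark strand, so reads of the 2 genes cannot be told apart by strand where they overlap.

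ATG5, the partner of ATG12, did not follow it. It was at 23.9, 22.5 and 21.7 FPKM in the controls, 22.3, 22.0 and 23.1 FPKM after Si-FIBP#1 and 23.1, 22.0 and 22.2 FPKM after Si-FIBP#2. The 3 groups overlapped, and the 95% confidence intervals of its log2 change were -0.14 to 0.12 after Si-FIBP#1 and -0.15 to 0.11 after Si-FIBP#2. ATG7, the enzyme that activates both ATG12 and the ATG8 proteins, was at 25.5, 24.7 and 24.5 FPKM in the controls, 30.5, 31.5 and 32.5 FPKM after Si-FIBP#1 and 39.9, 30.2 and 38.0 FPKM after Si-FIBP#2. It rose by 0.33 ± 0.09 (limma, adjusted p = 0.0156) and 0.51 ± 0.09 (adjusted p = 0.00149), but the first call was lost without Si-FIBP#1 replicate 3 (adjusted p = 0.0503) and under median-ratio scaling (adjusted p = 0.0604). Si-FIBP#2 replicate 2 was the lowest of its group for ATG7. By transcript, ENST00000354449 of ATG7, of 4959 nt, had means of 7.07, 7.18 and 8.87 FPKM in Scramble, Si-FIBP#1 and Si-FIBP#2. ENST00000451830, of 549 nt, had 10.3, 12.8 and 14.6 FPKM, and ENST00000354956 and ENST00000446450 also had higher means with both siRNAs. No test was run on these transcripts. ATG3, which passes ATG8 proteins to the lipid, was at 55.8, 57.4 and 50.9 FPKM in the controls, 51.0, 53.5 and 50.7 FPKM after Si-FIBP#1 and 58.2, 66.4 and 61.8 FPKM after Si-FIBP#2. It was called higher after Si-FIBP#2 alone, by 0.18 ± 0.07 (adjusted p = 0.0429), a call lost under 10 of 17 settings. Among them were leaving out Scramble replicate 1 or 3, any Si-FIBP#1 replicate or Si-FIBP#2 replicate 2 or 3 (adjusted p up to 0.155). Under median-ratio scaling the change of ATG3 was 0.06 (adjusted p = 0.443).

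ATG4D had the largest mean rise among the conjugation genes. The ATG4 proteases trim ATG8 proteins before they are attached and release them from the membrane later. ATG4D was at 16.1, 15.6 and 13.5 FPKM in the controls, 21.8, 24.8 and 20.2 FPKM after Si-FIBP#1 and 23.5, 28.5 and 23.9 FPKM after Si-FIBP#2. It rose by 0.53 ± 0.10 (limma, adjusted p = 0.00223) and 0.71 ± 0.10 (adjusted p = 0.000412). The transcript most abundant in Scramble, ENST00000309469, was not higher after depletion. It was at 6.72, 6.36 and 6.32 FPKM in the controls, 6.28, 6.07 and 4.68 FPKM after Si-FIBP#1 and 5.27, 5.96 and 5.93 FPKM after Si-FIBP#2. The shorter ENST00000589753, of 931 nt, went from 2.30, 2.44 and 2.15 FPKM to 6.62, 8.77 and 6.08 FPKM and to 7.56, 7.74 and 8.80 FPKM, and had the higher mean of the pair after either siRNA. These transcript values are given without a test. Among the other proteases, ATG4B rose by 0.43 ± 0.09 after Si-FIBP#2 (adjusted p = 0.00342) and differed by 0.15 ± 0.09 after Si-FIBP#1 (adjusted p = 0.186). The direct comparison of the siRNAs for ATG4B did not pass the test (adjusted p = 0.0697), although it did with TPM scaling (adjusted p = 0.037). ATG4A and ATG4C passed the test with neither siRNA. ATG16L1, which places the conjugate on the membrane, rose by 0.40 ± 0.12 and 0.42 ± 0.12, and its call after Si-FIBP#1 was lost without Scramble replicate 1 or Si-FIBP#1 replicate 3 (adjusted p up to 0.0583). ATG10, which transfers ATG12, ranged from 5.42 to 10.5 FPKM within Scramble and did not pass the test, although it did without Scramble replicate 3 with each siRNA (adjusted p = 0.0148 and 0.00802), and after Si-FIBP#2 with the replicate block (adjusted p = 0.0488) and with a filter of 5 FPKM (adjusted p = 0.0486). Its exons overlap by 374 bases those of RPS23, a ribosomal protein gene on the other strand at 3725 to 4530.4 FPKM.

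The ATG8 family was higher for 4 of its 5 genes after Si-FIBP#1, against 27.8% of all genes, and for 5 of 5 after Si-FIBP#2, against 31.1%. MAP1LC3A, or LC3A (chromosome 20, 34546854 to 34560345 on the plus strand, GRCh38), was at 23.1, 21.6 and 22.0 FPKM in the controls, 50.4, 50.9 and 46.0 FPKM after Si-FIBP#1 and 38.4, 45.5 and 37.1 FPKM after Si-FIBP#2. Its mean level was 2.21 and 1.82 times that of Scramble, and the groups did not overlap. LC3A rose by 1.11 ± 0.08 (limma, adjusted p = 5.64e-06) and 0.83 ± 0.08 (adjusted p = 3.59e-05). MAP1LC3B, the LC3B gene most used as an autophagosome marker (chromosome 16, 87383995 to 87404779 on the plus strand), was at 62.3, 65.3 and 66.4 FPKM in the controls, 65.7, 70.2 and 71.4 FPKM after Si-FIBP#1 and 85.7, 93.8 and 85.4 FPKM after Si-FIBP#2. The Si-FIBP#1 samples overlapped the controls and the Si-FIBP#2 samples did not. LC3B differed by 0.09 ± 0.06 after Si-FIBP#1 (adjusted p = 0.198) and rose by 0.44 ± 0.06 after Si-FIBP#2 (adjusted p = 0.000183).

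The GABARAP genes act later than LC3, in closing the autophagosome and fusing it with the lysosome. GABARAP (chromosome 17, 7240014 to 7242770 on the minus strand) was the most abundant of the family, at 117, 125 and 137 FPKM in the controls, 211, 205 and 214 FPKM after Si-FIBP#1 and 152, 161 and 162 FPKM after Si-FIBP#2. The 3 groups were fully separate, and the Si-FIBP#1 samples were the highest. GABARAP rose by 0.73 ± 0.06 (limma, adjusted p = 1.11e-05) and 0.33 ± 0.06 (adjusted p = 0.00156). GABARAPL1 (chromosome 12, 10212458 to 10223130 on the plus strand) was at 37.4, 34.7 and 35.8 FPKM in the controls, 53.0, 54.3 and 57.2 FPKM after Si-FIBP#1 and 76.3, 74.3 and 69.8 FPKM after Si-FIBP#2. Here the Si-FIBP#2 samples were the highest, again with no overlap. GABARAPL1 rose by 0.59 ± 0.06 (adjusted p = 2.79e-05) and 1.01 ± 0.06 (adjusted p = 1.6e-06), the second just past 2-fold, and without Scramble replicate 2 or Si-FIBP#2 replicate 1 it was 0.98. GABARAPL2 rose by 0.46 ± 0.07 and 0.64 ± 0.07. Related genes and copies held little signal: MAP1LC3B2 reached at most 3.53 FPKM, MAP1LC3C 0.11 FPKM and GABARAPL3 0.03 FPKM in any sample.

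**Figure D2:**
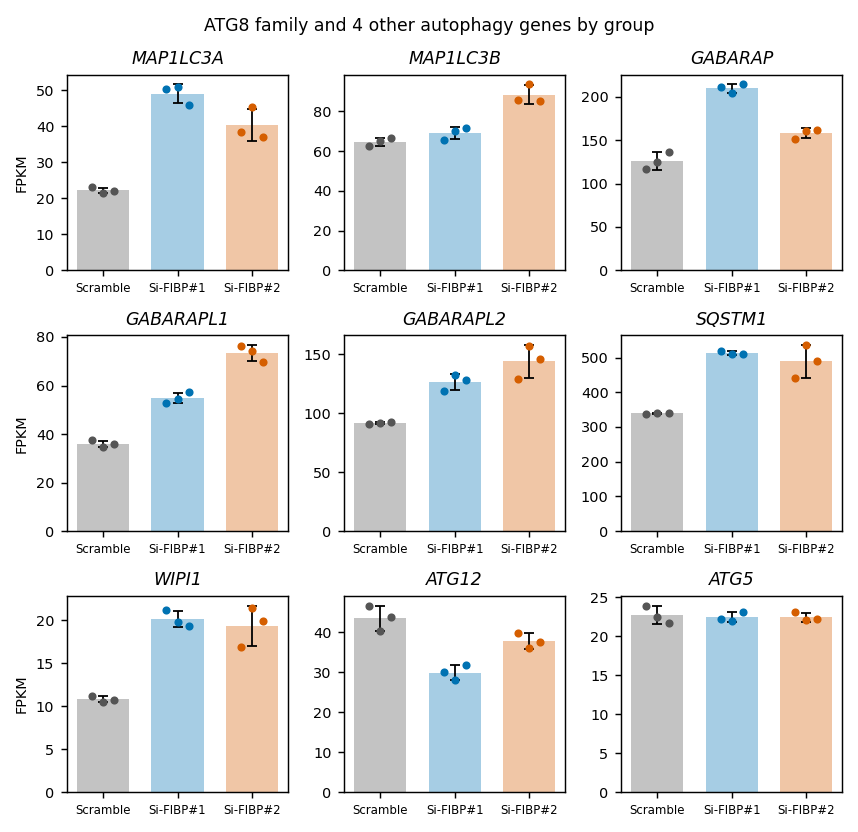
Bars are group means of FPKM, error bars are SD of 3 samples and points are the samples, for the 5 ATG8 family genes and SQSTM1, WIPI1, ATG12 and ATG5. GABARAP is highest after Si-FIBP#1 and GABARAPL1 after Si-FIBP#2, ATG12 falls in both and ATG5 stays between 21.7 and 23.9 FPKM.

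The summed level of the family was alike with both siRNAs, at 330.7, 338.7 and 353.6 FPKM in the controls, 499.2, 512.5 and 517.1 FPKM after Si-FIBP#1 and 481.7, 532.0 and 499.8 FPKM after Si-FIBP#2. This is 1.49 and 1.48 times the Scramble mean. The composition differed. GABARAP made up 37.0% ± 1.69 of the family (SD, n = 3) in Scramble, 41.2% ± 1.19 after Si-FIBP#1 and 31.4% ± 1.06 after Si-FIBP#2. GABARAPL1 made up 10.6% ± 0.652, 10.8% ± 0.268 and 14.6% ± 1.09 in the same order, and LC3B 19.0% ± 0.275, 13.6% ± 0.346 and 17.5% ± 0.369. These shares are given without a test.

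The cargo receptors were higher for 4 of 5 genes with each siRNA, against 27.8% and 31.1% of all genes, although the calls of TAX1BP1 depended on the setting. SQSTM1, which encodes p62, was the most abundant autophagy gene, at 336, 341 and 339.9 FPKM in the controls, 519, 511 and 509 FPKM after Si-FIBP#1 and 439.7, 536 and 490.4 FPKM after Si-FIBP#2. The controls lay within 5 FPKM of each other, all depleted samples were above them and the Si-FIBP#2 samples were the most spread. SQSTM1 rose by 0.60 ± 0.06 (limma, adjusted p = 5.41e-05) and 0.52 ± 0.06 (adjusted p = 0.00013). Its most abundant transcript, ENST00000389805, had means of 231, 306 and 313 FPKM in Scramble, Si-FIBP#1 and Si-FIBP#2. Short transcripts also entered the sum: ENST00000466342, of 808 nt, had 33.2, 67.0 and 59.7 FPKM, and ENST00000626660, of 274 nt, had 4.82, 32.2 and 8.94 FPKM. CALCOCO2, or NDP52, which recognizes bacteria and damaged mitochondria, was at 51.2, 50.3 and 56.5 FPKM in the controls, 67.7, 68.4 and 71.2 FPKM after Si-FIBP#1 and 72.4, 81.7 and 73.7 FPKM after Si-FIBP#2. It rose by 0.39 ± 0.06 (adjusted p = 0.000864) and 0.52 ± 0.06 (adjusted p = 0.000152), with no overlap between depleted and control samples. NBR1, a receptor that works with p62, rose by 0.32 ± 0.07 and 0.47 ± 0.07. TAX1BP1 rose by 0.22 ± 0.08 (adjusted p = 0.0349) and 0.21 ± 0.08 (adjusted p = 0.0452), but these calls were lost under 9 and 11 of the 17 settings, including without any 1 of the Scramble replicates and, after Si-FIBP#2, without Si-FIBP#2 replicate 2 (log2 fold change 0.13, adjusted p = 0.118). The highest adjusted p over all settings was 0.135 and 0.363. OPTN, or optineurin, was between 24.7 and 27.9 FPKM in all samples and did not pass the test, with 95% confidence intervals of its log2 change of -0.10 to 0.16 and -0.06 to 0.20.

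Among the regulators, 1 of 3 was higher after Si-FIBP#1 and 2 of 3 after Si-FIBP#2, where 27.8% and 31.1% of all genes were. TFEB, the transcription factor named above, was close to the detection filter, at 1.65, 1.07 and 1.35 FPKM in the controls, 2.48, 1.72 and 1.18 FPKM after Si-FIBP#1 and 4.72, 2.40 and 2.12 FPKM after Si-FIBP#2. The Si-FIBP#1 samples overlapped the controls, and Si-FIBP#2 replicate 1 was well above its partners. TFEB differed by 0.23 ± 0.25 after Si-FIBP#1 (limma, adjusted p = 0.479) and rose by 0.74 ± 0.25 after Si-FIBP#2 (adjusted p = 0.0308). The latter call was lost without Si-FIBP#2 replicate 1 (log2 fold change 0.47, adjusted p = 0.0935) and without Scramble replicate 2 or 3 (adjusted p = 0.0938 and 0.0684). TFE3, its more abundant relative, was at 23.9 ± 1.10 FPKM in the controls, 24.6 ± 2.13 FPKM after Si-FIBP#1 and 27.2 ± 2.44 FPKM after Si-FIBP#2 (mean ± SD, n = 3), and did not pass the test. Without Si-FIBP#2 replicate 2 it was called higher after Si-FIBP#2, by 0.25 (adjusted p = 0.0274). AMBRA1, which links BECN1 and ULK1 to ubiquitin ligases, was at 6.86, 7.58 and 5.82 FPKM in the controls, 9.06, 8.77 and 7.92 FPKM after Si-FIBP#1 and 10.0, 8.96 and 9.86 FPKM after Si-FIBP#2. It rose by 0.31 ± 0.10 (adjusted p = 0.0265) and 0.46 ± 0.10 (adjusted p = 0.00384). An assembled transcript held 48.4% of its FPKM, and over Ensembl transcripts alone the changes were 0.14 (adjusted p = 0.575) and 0.04 (adjusted p = 0.87). The call after Si-FIBP#1 was also lost without Scramble replicate 3 or Si-FIBP#1 replicate 1 or 2 (adjusted p = 0.094, 0.0817 and 0.0754).

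Si-FIBP#2 was then set directly against Si-FIBP#1. FIBP did not differ between them beyond the spread (log2 difference 0.13, 95% confidence interval -0.28 to 0.54, limma, adjusted p = 0.686). Of the 38 genes, 4 were higher and 2 were lower after Si-FIBP#2, against 9.58% and 5.8% of all genes, and in either direction the shares were 15.8% and 15.4%. The share is close to the background, so the count is no result about the members as a group. With Si-FIBP#2, GABARAPL1 was higher by 0.41 ± 0.06 (adjusted p = 0.0018), LC3B by 0.35 ± 0.06 (adjusted p = 0.00399), ATG12 by 0.33 ± 0.07 (adjusted p = 0.0154) and ATG3 by 0.26 ± 0.07 (adjusted p = 0.0267). GABARAP differed by -0.41 ± 0.06 (adjusted p = 0.0026) and LC3A by -0.28 ± 0.08 (adjusted p = 0.0433), both lower after Si-FIBP#2. All 38 differences were under 2-fold, while 0.561% of all genes passed both the test and that size. The calls of GABARAPL1, LC3B and GABARAP were kept under all 17 settings. Those of LC3A, ATG3 and ATG12 were lost under 10, 5 and 2 settings, including single samples left out, with adjusted p up to 0.146, 0.0798 and 0.0615. Leaving out Si-FIBP#1 replicate 2 left 3 genes called, and leaving out Si-FIBP#2 replicate 2 raised the number to 9, with BECN1, PIK3R4 and ATG7 added. The calls over all 14985 genes moved the same way, from 2304 to 1345 and to 2822.

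**Figure D3:**
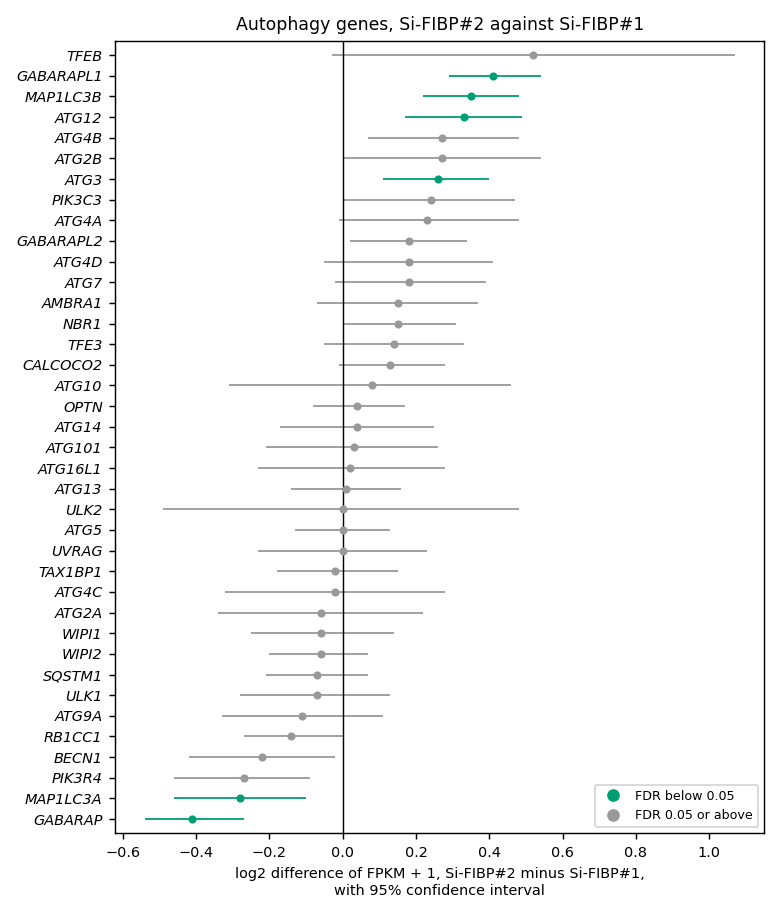
Points are log2 differences of FPKM + 1, Si-FIBP#2 minus Si-FIBP#1, with 95% confidence intervals, and the 6 genes with FDR below 0.05 are green. GABARAPL1 and LC3B (MAP1LC3B) are higher after Si-FIBP#2 and GABARAP and LC3A (MAP1LC3A) are lower, and the intervals of ATG4B, GABARAPL2, BECN1, PIK3R4 and, narrowly, RB1CC1 and PIK3C3 exclude 0 although their FDR is 0.05 or above.

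The gene values add up 513 transcripts, of which 46 were assembled from the reads and carry no Ensembl identifier. In 14 members no assembled transcript contributed, and in the others its share reached 50.3% of the gene. The mean of the most abundant Ensembl transcript, over all samples and leaving out assembled ones, moved in the direction of its gene for 23 of the 24 genes called after Si-FIBP#1. It did so for 28 of the 29 called after Si-FIBP#2, ATG4D being the exception in both. This transcript is part of the gene's sum, so such agreement is partly built in. Its samples overlapped Scramble for RB1CC1, ATG14 and AMBRA1 after Si-FIBP#1, and for ATG13, WIPI2, ATG7, GABARAP and AMBRA1 after Si-FIBP#2. In ATG14 and AMBRA1 the assembled transcript was more abundant than the Ensembl transcript counted here. Exons of 15 members overlap those of another gene with a Scramble mean of 1 FPKM or more, which lies on the opposite strand for 14 of them. SQSTM1 shares 803 bases with MRNIP, whose mean was 19.8 FPKM in Scramble and 27.5 and 28.9 FPKM after depletion, and 105 bases with the more abundant MGAT4B, at 159, 184 and 171 FPKM. MGAT4B was higher after Si-FIBP#1 (limma, adjusted p = 0.00711) and did not pass the test after Si-FIBP#2 (adjusted p = 0.115). WIPI1 shares 539 bases with ARSG, at 5.52, 8.20 and 7.51 FPKM, and ATG7 shares 1596 bases with VGLL4, at 18.8, 23.4 and 24.8 FPKM. BECN1 shares 209 bases with PSME3, which was at 59.8, 58.5 and 59.1 FPKM. ATG9A shares 1073 bases with AC068946.2 on its own strand, at 3.17, 4.64 and 5.54 FPKM. GABARAP shares 493 bases with AC120057.2 on its own strand, which was listed at 0 in Scramble and had means of 0.403 and 1.42 FPKM after depletion. The part of such reads in the members' values was not tested.

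A wider list of 75 genes around the core machinery was read in the same way, and 68 of them passed the expression filter. With Si-FIBP#1, 32 were higher and 9 were lower, and after Si-FIBP#2, 35 were higher and 5 were lower, with median log2 fold changes of 0.18 and 0.23. These are 47.1% higher and 13.2% lower, then 51.5% higher and 7.35% lower, while over all genes tested the shares were 27.8% and 19.9%, then 31.1% and 17.7%, and the medians 0.07 and 0.11. Of the genes for fusion with the lysosome, 9 of 12 were higher with each siRNA, and YKT6, VPS39 and VPS41 passed the test with neither. Of the genes listed as other core and lipid genes, 2 of 10 were higher and 1 lower after Si-FIBP#1, and 1 was higher after Si-FIBP#2. VPS33A was higher with both siRNAs and was counted here, although by function it belongs with the fusion genes. Of the upstream kinases and mTORC1 genes, 5 of 18 were higher and 4 lower after Si-FIBP#1, close to the shares of all genes, and 9 were higher and 2 lower after Si-FIBP#2. Selective receptors had 8 of 15 higher and 4 lower, then 9 higher and 2 lower. Transcription regulators had 5 of 9 higher with each siRNA and 1 lower after Si-FIBP#2, and the ATG8-binding regulators had 3 and 2 of 4 higher.

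RRAGD is a small GTPase that recruits mTORC1 and TFEB to the lysosome and is itself known as a TFEB target. It was the 1 gene of the wider list past 2-fold on the log2(FPKM + 1) scale, after Si-FIBP#2 only. This is 1.47% of the 68 genes tested, while 2.92% of all genes rose that far. After Si-FIBP#1 the shares were 0% and 2.55%. RRAGD was at 7.13, 8.78 and 8.40 FPKM in the controls, 13.9, 21.6 and 15.8 FPKM after Si-FIBP#1 and 26.2, 22.9 and 23.4 FPKM after Si-FIBP#2. No depleted sample overlapped the controls. RRAGD changed by 0.98 ± 0.14 after Si-FIBP#1 (limma, adjusted p = 0.000415), just under 2-fold on this scale, and rose by 1.47 ± 0.14 after Si-FIBP#2 (adjusted p = 3.63e-05). By the ratio of mean FPKM, CCPG1 was at 2.04 times Scramble after Si-FIBP#1, and PLEKHM1 at 2.05 and PINK1 at 2.02 times after Si-FIBP#2. These genes and RHEB were singled out after their values were seen. PINK1, the kinase that marks damaged mitochondria, rose by 0.91 ± 0.08 and 0.98 ± 0.08, and CCPG1, a receptor for the endoplasmic reticulum, by 0.98 ± 0.11 and 0.68 ± 0.11. PLEKHM1, an adaptor for fusion with the lysosome, rose by 0.74 ± 0.08 and 0.98 ± 0.08. RHEB, the GTPase that activates mTORC1, changed by -0.72 ± 0.10 and -0.37 ± 0.10, lower with both siRNAs (adjusted p = 0.000238 and 0.0102). Other upstream kinase and mTORC1 genes were called in either direction. MTOR rose by 0.30 ± 0.07 and 0.40 ± 0.07 and RPTOR by 0.31 ± 0.08 and 0.55 ± 0.08, while PRKAG2 was lower with both siRNAs.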

How the data were processed

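RNA-seq was analysed for 9 H1299 samples, 3 per group, grouped by the sample labels. The authors deposited 1 table per sample with an FPKM value per transcript. The unit was inferred from the values. The submitters' processing notes name HISAT2 and StringTie. The genome build, the annotation and the strand setting of these programs are not given in the sources used here. Poly(A)-selected RNA was sequenced from both ends with a kit that does not mark strand.

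FPKM were summed per gene. Genes that reached 1 FPKM in 3 or more samples entered the test on log2(FPKM + 1), a scale that shrinks the change of low genes, in limma 3.58.1 in R 4.3.3 (lmFit and eBayes with a mean-variance trend, all 9 samples in 1 fit, group as the term). Benjamini-Hochberg adjustment was over all genes tested. No count test was run, as the files hold no counts. Depth was estimated from the step that 1 fragment is worth in genes with 1 transcript, and the spread between samples stands for the precision. Gene positions are from GENCODE release 29 (GRCh38), and promoters from RefSeq.

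The members and gene lists were chosen with earlier results of these data known. Values in every sample are given for members past FDR 0.05 and 2-fold with either siRNA, for the 2 members of each role with the largest mean change among those called, for members that differed between the siRNAs, and for ULK1, BECN1, ATG5, ATG7, MAP1LC3B, SQSTM1 and TFEB. From the wider list, genes past 2-fold were given. Other named genes were chosen after their values were seen. A further marker of the cell line is not reported here. The alternatives were another pseudocount, scaling or filter, Ensembl transcripts only, only the groups compared, a block for the replicate number and each sample left out in turn. Python 3.11.15 with matplotlib 3.10.9, numpy 2.4.6 and pandas 2.3.3 was used for tables and plots.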

Additional observations from a re-analysis of the deposited data

Results flagged for a closer look

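In 6 autophagy genes the change with Si-FIBP#2 differed from that with Si-FIBP#1 by a direct test of the difference (limma, adjusted p below 0.05 over 14985 genes, 3 samples per siRNA). Such a difference was found for 15.4% of all genes tested. Given as Si-FIBP#2 minus Si-FIBP#1 on the log2 scale, it was 0.41 for GABARAPL1, 0.35 for MAP1LC3B, 0.33 for ATG12, 0.26 for ATG3, -0.28 for MAP1LC3A and -0.41 for GABARAP. The 3 samples of one siRNA lay entirely above or below the 3 of the other in each of these 6 genes. That adds no support, as the genes were picked by a test on the same samples. ATG10, ATG4B, CALCOCO2, NBR1, PIK3C3 and PIK3R4, which did not pass it, were separated in the same way. The share over all genes was not counted. FIBP was lowered to 7.96% and 8.66% of its Scramble mean by the 2 siRNAs. What lies behind the differences was not tested.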

How the results depend on the processing

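Of the autophagy genes called, 17 of 24 with Si-FIBP#1, 21 of 29 with Si-FIBP#2 and 3 of 6 between the siRNAs were called under all 17 alternatives. None of these called genes changed sign in any of them. The matching share over all genes called was not counted, so these counts cannot be set against a background. The members' median log2 fold change with Si-FIBP#1 (0.32) was 0.34 with a pseudocount of 0.1 or a filter of 5 FPKM, 0.28 with TPM scaling, 0.24 with median-ratio scaling, 0.23 with Ensembl transcripts only and 0.31 to 0.34 with 1 sample left out. With Si-FIBP#2 (0.42) it was 0.31 with median-ratio scaling. Between the siRNAs (0.04) it was 0.08 with TPM scaling, -0.01 with median-ratio scaling and 0.03 to 0.11 with 1 sample left out. The number of members past 2-fold with Si-FIBP#2 (1) was 2 with a pseudocount of 0.1, 0 with median-ratio scaling and 0 to 1 with 1 sample left out. Members called between the siRNAs (6) were 3 to 9 with 1 sample left out, while all genes called by the same rule (2304 of 14985) were 1274 to 2822. Over all genes, those called beyond 2-fold were 848, 757 and 84, and with a pseudocount of 0.1 they were 1498, 1411 and 172, while without Si-FIBP#2 replicate 2 the last count was 132, with a range of 75 to 132 over the samples left out.

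Some changes that never passed the test changed sign. With 1 sample left out, the lowest and highest changes of ATG5 were -0.04 and 0.02 in the Si-FIBP#1 comparison, -0.05 and 0.02 in the Si-FIBP#2 comparison, and -0.02 and 0.02 in the direct comparison of the siRNAs, where it was 0.04 with TPM scaling. Between the siRNAs, ATG101 was at -0.01 with median-ratio scaling and from -0.11 to 0.12 with 1 sample left out, ATG14 then ranged from -0.05 to 0.12, WIPI1 from -0.13 to 0.04 and ATG2A from -0.17 to 0.03, and AMBRA1 was at -0.10 with Ensembl transcripts only. The cause was not tested.

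Samples with the same replicate number did not deviate together (r from -0.0568 to 0.103), so the numbers were not taken as pairs. With the replicate number as a block, 24, 30 and 7 members were called, against 7081, 7287 and 2177 of all 14985 genes. Beyond 2-fold, 853, 760 and 88 of all genes were called with that block. The depth of about 20.0 to 23.9 M fragments limits genes near 1 FPKM, such as TFEB and ULK2.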
